A study of Homo sapiens with 6 samples.

Results

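The 8q24 genes described here are a list of 39 neighbours on the distal long arm of chromosome 8, from COLEC10 on the centromeric side to ST3GAL1 on the telomeric side. They were chosen by their TPM levels in the 3 control libraries, since a run of genes among them had the highest levels of any run, so the levels below describe the choice and no test of them was made. Of the 39, 38 have a row in the table of 17170 genes, and COLEC10, which encodes a secreted collectin, has none. The 38 measured members lie between positions 119208363 and 133571887 of chromosome 8 (GRCh38.p14, RefSeq gene bounds). Values come from 3 control libraries of the established line NCI-H69, derived from small cell lung cancer, whose cells carried a non-targeting guide RNA. The series also describes 3 samples with a stable SCRMP knockout, made with CRISPR/Cas9 guides to the MIR7-3HG open reading frame, and no column name of the table matched them, so knockout and control are not compared. The labels call the controls biological replicates of 1 batch. The sources used here do not say whether they are a pool or a clone, or how far back the cultures were separate, so each SD measures the spread between these 3 libraries only.

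The region 8q24 is known for the oncogene MYC and for gains in many carcinomas, small cell lung cancer among them. The genes around MYC do not form a pathway. They include subunits of general machines that dividing cells use for transcription, replication, protein quality control, respiration and sterol synthesis, and they alternate with genes that are normally used in few tissues. Levels are in TPM, a unit that divides reads by transcript length and scales each library to the same total, and so allows genes to be set side by side. RNA levels alone do not show the number of gene copies, and no DNA measurement is analysed here.

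The 3 libraries held 20941185 to 22477571 estimated reads. Between pairs of libraries, chi-square divided by its degrees of freedom was 6.18 to 15.8 over genes, more than counting error gives, so each was taken as a separate library. The labelled cell type was checked against marker lists, and the levels did not match a neuroendocrine line. The levels of the 8q24 genes are therefore not to be read as typical of neuroendocrine small cell lung cancer. Of 8 measured neuroendocrine markers, NCAM1 alone reached 1 TPM in all libraries, at 25.7 TPM ± 3.66, and the list summed to 23.4 to 31.3 TPM. The defining neuroendocrine genes CHGA, INSM1, DLL3 and SYP stood between 0.080 and 0.717 TPM. Of 10 mesenchymal or fibroblast markers 9 were detected, and they summed to 6333 to 6362 TPM, with VIM highest. Epithelial markers summed to at most 5.30 TPM, leukocyte markers to 10.1 TPM and endothelial markers to 0.700 TPM. The part of cell identity in the levels of the 8q24 genes was not tested.

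Levels among the 38 measured members ran from near 0 to among the highest of the transcriptome. Detection, set at a minimum of 1 TPM in each of the 3 libraries, was met by 29 of the 38 members (76.3%) and 66.5% of all genes. A level of at least 10 TPM in all libraries was met by 26 members (68.4%) and 42.5% of all genes, and a level of at least 50 TPM by 19 members (50%) and 14.8% of all genes. At 100 TPM or more stood 14 members (36.8%), against 7.78% of all genes. Since the run was chosen for its level, these shares repeat the choice. The members' median was 53.5, 50.3 and 43.9 TPM in replicates 1, 2 and 3, that is 49.2 TPM ± 4.85, against 6.83 TPM ± 0.461 over all genes. Together the members held 1.18% of all TPM, and NDUFB9 alone made up 46.0% of that.

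**Figure D1:**
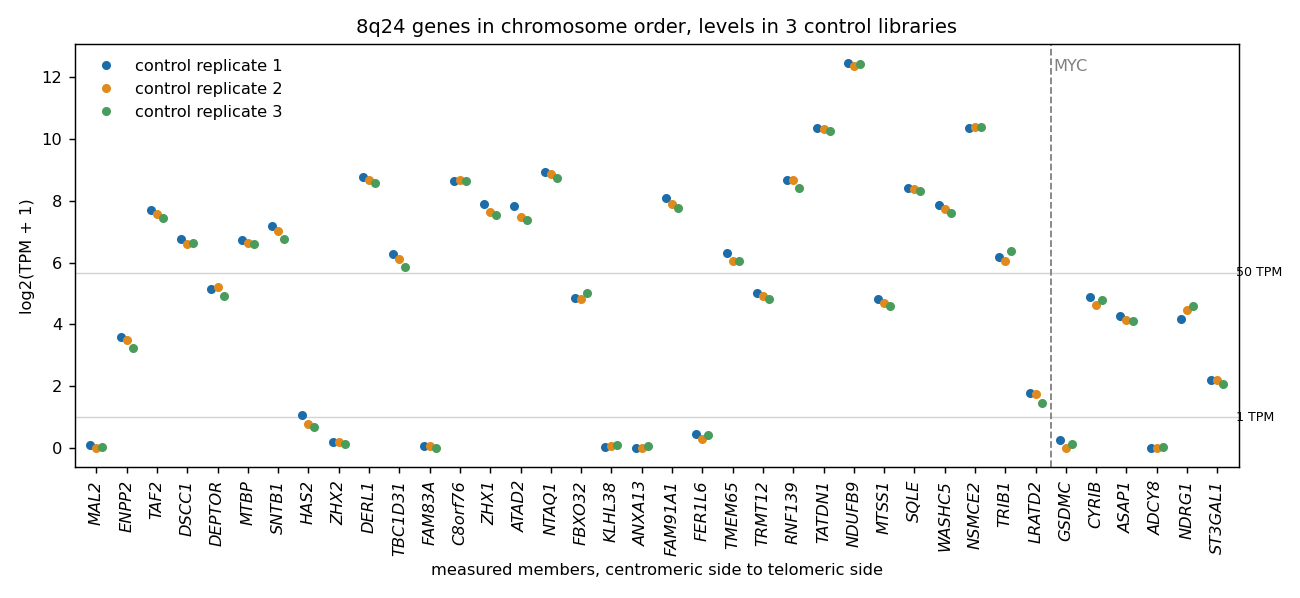
Level of each of the 38 measured members (y axis, log2(TPM + 1)) in chromosome order (x axis), with 1 point per control library and grey lines at 1 and 50 TPM. High members such as NDUFB9 (5424 TPM on average) stand beside members near 0 such as ANXA13 and FAM83A, and the 6 members beyond the dashed line at MYC stay below 50 TPM.

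The high levels were not spread evenly over the list. The 32 members on the centromeric side of MYC had a median of 88.1 TPM ± 5.23, and all 19 members at 50 TPM or more lie there. The 6 members on the telomeric side, from GSDMC to ST3GAL1, had a median of 10.0 TPM ± 0.270, and the highest of them, CYRIB, had 26.3 TPM ± 2.30. On the log2(TPM + 1) scale the difference between the medians of these groups of genes was 3.34, 3.18 and 3.41 in the 3 libraries. MYC itself, which is not a member, had 335.6 TPM ± 14.01 and divides the list only as a landmark picked after the values were seen.

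A limit of 500000 bases was set outside the plan, and no other was tried. Gaps above it between measured genes break the region into 7 blocks. The first, from MAL2 to SNTB1 (119208363 to 120812046), holds 7 members with a median of 99.8 TPM ± 5.39. HAS2 stands alone behind a gap of 800069 bases and before one of 1138938 bases, at 0.807 TPM ± 0.254. The block from ZHX2 to TRIB1 (122780379 to 125438403) is the richest, with 23 members of which 18 were detected, 15 at 50 TPM or more, and a median of 190 TPM ± 34.2. Past TRIB1 no member was above 26.3 TPM on average. LRATD2, 1114039 bases further, had 2.19 TPM ± 0.384, and the 4 members from GSDMC to ADCY8 had a median of 8.57 TPM ± 0.552.

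A highest run of 31 neighbouring measured genes on the chromosome started at TAF2 and ended at WASHC5 (119730774 to 125091792), with a median of 6.66 on the log2(mean TPM + 1) scale, and the next run, from DSCC1 to NSMCE2, had the same median. The first of them contains 27 members and 4 other genes. On the next chromosome in this ranking, chromosome 1, the highest run reached 5.77, and 17 runs were above that value, all on chromosome 8 and centred between DSCC1 and RNF139. The median over all 16408 runs of the genome was 3.04. In runs centred on ADCY8 and on ST3GAL1 the median was 2.71 and 1.68.

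**Figure D2:**
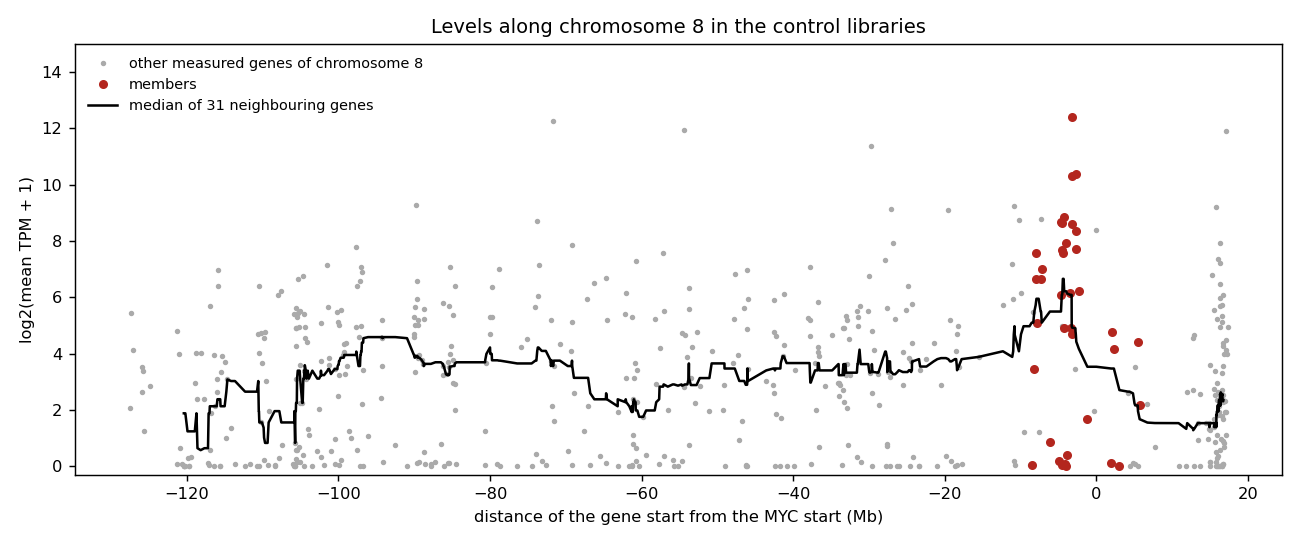
Level of every measured gene of chromosome 8 (y axis, log2 of the mean TPM of 3 control libraries plus 1) against the distance of its start from the MYC start in megabases (x axis), with members in red, other genes in grey and the median of 31 neighbours as a line. The line peaks at 6.66 on the centromeric side of MYC and falls to 1.68 at the last member.

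Both edges of the list are positions and not level limits. At the centromeric edge MAL2, the outermost measured member, had 0.0333 TPM and its outside neighbour TNFRSF11B 0.0233 TPM. At the telomeric edge ST3GAL1 had 3.48 TPM and the next gene outside, ZFAT, 3.69 TPM. Between the edges lie 13 measured genes that are not on the list, of which 9 were detected. MRPL13, a mitochondrial ribosomal protein gene, had 437 TPM ± 19.1 and CCN3, a secreted matricellular factor, 44.2 TPM ± 0.876. COL14A1, a fibril-associated collagen chain, had 1.32 TPM ± 0.250, ZNF572 10.1 TPM ± 2.38 and POU5F1B 2.88 TPM ± 0.386. On the telomeric side EFR3A had 5.03 TPM ± 0.948 and PHF20L1 10.6 TPM ± 0.850, while KCNQ3, DNAAF11, TG and CCN4 were below 0.1 TPM on average.

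Among the 7 members of DNA replication, chromatin and transcription, 6 were at 50 TPM or more and ZHX2 was near 0. NSMCE2, the SUMO ligase subunit of the SMC5/6 complex that helps to repair and untangle replicated DNA, had 1314, 1336 and 1331 TPM in replicates 1 to 3 (1327 TPM ± 11.4, coefficient of variation 0.859%). Its libraries were closer to each other than those of the other members with 10 TPM or more. It lies on the plus strand at 125091860 to 125367120 and ranked 107 among all genes.

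TAF2, a subunit of the general transcription factor TFIID (119730774 to 119832841, minus strand), had 205, 188 and 173 TPM. Its neighbour DSCC1, a subunit of the CTF18 clamp loader used in sister chromatid cohesion (119833976 to 119855894, minus strand), had 107, 96.7 and 98.3 TPM. MTBP, which acts with TICRR in the firing of replication origins, had 106, 97.8 and 96.5 TPM. These 3 genes were highest in replicate 1, and the ranges of DSCC1 and MTBP overlap.

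ATAD2, an ATPase with a bromodomain that binds acetylated histones (123319850 to 123416350, minus strand), had 229, 176 and 164 TPM. At 18.0% it had the largest coefficient of variation of the 26 members with a mean of 10 TPM or more, and its replicate 1 stands above the other libraries. ZHX1, a zinc finger and homeobox repressor, had 238, 199 and 183 TPM, whereas its paralog ZHX2, which opens the same block, had 0.16, 0.15 and 0.09 TPM from at most 8.25 estimated reads per library. The annotated read-through gene ZHX1-C8orf76 (30.4 TPM ± 4.51) overlaps ZHX1 and C8orf76 on the same strand. Reads in the shared exons can be given to any of the 3, so their split is uncertain. C8orf76 had 399.8, 407 and 397 TPM.

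Protein turnover genes were the group with the highest median of the list, at 385 TPM ± 39.3 over 5 members, of which 3 were at 50 TPM or more. NTAQ1, which deamidates N-terminal glutamine and so feeds proteins into the N-degron pathway, had 485, 468 and 429 TPM. DERL1, a membrane protein of the endoplasmic reticulum that takes part in the export of misfolded proteins (123013170 to 123042302, minus strand), had 438, 409 and 380.4 TPM. RNF139, a ubiquitin ligase of the same membrane, had 406, 411 and 339 TPM. The range of DERL1 overlaps those of NTAQ1 and RNF139, which do not overlap each other. FBXO32, the substrate receptor known as atrogin-1 in muscle wasting, was an order of magnitude lower with 28.0, 27.7 and 31.2 TPM. KLHL38, a Kelch family gene, had at most 0.07 TPM from at most 2.94 estimated reads per library.

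All 5 members of metabolism, mitochondria and RNA modification were detected, with a median of 329 TPM ± 10.9. NDUFB9, an accessory subunit of respiratory complex I (124539123 to 124549979, plus strand), had 5581, 5253 and 5438 TPM and ranked 19 among all genes. TATDN1, a relative of the TatD nucleases, had 1308, 1279.5 and 1213 TPM. The libraries of NDUFB9 and of TATDN1 do not overlap with those of any other member.

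SQLE, squalene epoxidase of sterol synthesis (124998505 to 125022283, plus strand), had 337, 334 and 317 TPM with a coefficient of variation of 3.30%. TMEM65, a protein of the inner mitochondrial membrane, had 78.9, 64.7 and 65.4 TPM and was high in replicate 1. TRMT12, an enzyme of wybutosine synthesis in tRNA, was the lowest of the group with 31.1, 29.4 and 27.6 TPM. RNF139 and TATDN1 overlap by 125 bases at their 3′ ends on opposite strands. The libraries keep the strand per the labels, but no source used here says whether the counting used it.

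The 10 members of actin, membrane traffic and scaffolds divided into 7 detected genes and 3 near 0. FAM91A1, which helps to tether vesicles at the trans-Golgi, had 273, 239 and 215 TPM. WASHC5, strumpellin of the WASH complex that assembles actin on endosomes (125024260 to 125091792, minus strand), had 230.1, 213 and 193 TPM. SNTB1, a syntrophin scaffold, had 144, 129 and 108 TPM. In all 3 genes replicate 1 was highest and replicate 3 lowest.

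TBC1D31, a TBC domain protein of centrosomes, had 76.7, 67.9 and 56.7 TPM. CYRIB, which binds RAC1 and restrains actin assembly at the leading edge, had 28.5, 23.9 and 26.4 TPM. MTSS1, a membrane-bending I-BAR protein, had 27.4, 25.03 and 23.2 TPM and ASAP1, a GTPase-activating protein for ARF, 18.2, 16.6 and 16.3 TPM. CYRIB and MTSS1 overlap in range and ASAP1 is below both. MAL2 and ANXA13, genes of polarised epithelia, had at most 2 reads in any library, and the ferlin gene FER1L6 had 0.317 TPM ± 0.0777.

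Secreted factors and glycan enzymes were low, with 0 of 3 measured members at 10 TPM or more in all libraries. ENPP2, autotaxin, which makes lysophosphatidic acid, was just short of it with 11.1, 10.3 and 8.45 TPM. ST3GAL1, a sialyltransferase of O-linked glycans, had 3.64, 3.63 and 3.18 TPM. HAS2, a hyaluronan synthase, had 1.09, 0.73 and 0.60 TPM and thus crossed 1 TPM in replicate 1 only.

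Of the 5 signalling and stress response members 3 were detected. TRIB1, a pseudokinase that brings substrates to the ubiquitin ligase COP1, had 72.1, 65.2 and 82.7 TPM. DEPTOR, an inhibitor bound to the kinase mTOR, had 34.8, 35.9 and 29.4 TPM. NDRG1, a gene known to respond to hypoxia and other stress, had 16.9, 21.4 and 23.2 TPM, and replicate 1 was its lowest library. ADCY8, an adenylyl cyclase stimulated by calcium, was seen with 1 read, in replicate 3, and FAM83A had at most 2.90 estimated reads. Of the remaining members LRATD2 had 2.43, 2.40 and 1.75 TPM, and GSDMC, a pore-forming gasdermin, had at most 0.19 TPM.

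In the order of all 38 members by mean TPM, the ranges of the 3 libraries overlapped for 22 of 37 neighbouring pairs, so much of the order is not resolved at this spread. At the top of the order NDUFB9 is above NSMCE2, NSMCE2 above TATDN1 and TATDN1 above NTAQ1 without overlap. The margin between NSMCE2 and TATDN1 is narrow, as they had 1314 and 1308 TPM in replicate 1. Ranks from NTAQ1 to RNF139, from FAM91A1 to TAF2 and from DEPTOR to ASAP1 form chains in which each neighbour overlaps the next. Below LRATD2 the members rest on few reads. For 6 members, MAL2, FAM83A, KLHL38, ANXA13, GSDMC and ADCY8, the mean was under 3 estimated reads, which does not resolve any order among them.

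Transcript length bears on these ranks, because TPM divides by it. NDUFB9 ranked 19 by TPM and 45 by estimated reads. Long transcripts moved the other way: TMEM65 ranked 2010 by TPM and 368 by reads, and ATAD2 683 by TPM and 222 by reads. Among the 1000 highest of all 17170 genes were 13 of the 38 members by TPM and 16 by reads, which repeats the choice by level.

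Detected and nearly silent members lie next to each other. FAM83A (0.040 TPM) sits between TBC1D31 (67.1 TPM) and C8orf76 (401 TPM). KLHL38 and ANXA13 lie between FBXO32 (28.9 TPM) and FAM91A1 (242 TPM), and FER1L6 follows FAM91A1 after 36534 bases. In the block from ZHX2 to TRIB1 the 5 members that were not detected, ZHX2, FAM83A, KLHL38, ANXA13 and FER1L6, had at most 0.380 TPM in any library. The gap between them and the lowest detected member of the block, MTSS1 at 25.2 TPM, held no member. It did hold ZNF572, a gene of the block that is not on the list, at 10.1 TPM ± 2.38.

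Strands and distances between start sites were not used directly in the choice of members, which went by level and region. A start site less than 1000 bases from that of another measured gene on the opposite strand, pointing away from it, was found for 7 of 38 members (18.4%) and for 11.1% of the 16941 measured genes with a strand. The 16941 were not matched to the members in level, so the shares compare genes at unlike levels. The 4 pairs involved are MRPL13 and MTBP, 269 bases apart, ATAD2 and NTAQ1, 375 bases apart, TATDN1 and NDUFB9, 35 bases apart, and WASHC5 and NSMCE2, 68 bases apart. All 8 genes of these pairs were at 50 TPM or more, which partly repeats the choice by level, but the partners were unequal. NSMCE2 was 6.29-fold ± 0.588 above WASHC5, MRPL13 4.37-fold ± 0.217 above MTBP, NDUFB9 4.28-fold ± 0.188 above TATDN1 and NTAQ1 2.46-fold ± 0.298 above ATAD2 (SD of the ratio over 3 libraries). With gene ends from GENCODE v29 and starts in either order, an alternative chosen after seeing the data, 9 members had such a partner, since DERL1 and TBC1D31 then overlap by 455 bases at their starts. The share of all genes under this looser rule is not given here, and the 11.1% does not apply to it. By these ends the distances of the 4 pairs, in the order above, were -2, 375, -357 and -161 bases. A negative distance is an overlap, so the distances depend on the annotation.

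Members were also set beside the genes that act with them, or their paralogs, elsewhere in the genome. In 19 lists of complexes, pathways and families, 21 members were compared, and 12 of these ranked first in their list. For 11 of them the member was above every gene of its list that is not an 8q24 member in all 3 libraries. Both counts include HAS2, which was not detected and leads a list of 3 genes whose others had 0.570 and 0 TPM. As these levels were part of how the members were chosen, the ranks are a description.

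The widest distance in a complex was that of NSMCE2. The other 6 measured SMC5/6 genes ranged from 0.300 TPM (EID3) to 153 TPM (NSMCE1), and NSMCE2 was 65.7-fold ± 5.57 above their median. In the WASH complex WASHC5 was 4.40-fold ± 0.285 above the median of 8 partners and above the next gene, the capping protein gene CAPZB at 123 TPM ± 6.15. Reads of WASHC2A and WASHC2C in that list may be split wrongly, since these copies are nearly identical; they are named for that reason and not by rank. TAF2 was second in TFIID behind TAF9 (253 TPM ± 5.80) and 8.38-fold ± 0.658 above the median of the 13 other subunits.

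In replication, MTBP was 10.5-fold ± 0.982 above the median of 8 other origin firing genes, of which CDC45 was highest at 42.0 TPM ± 1.73 and its partner TICRR lowest at 1.32 TPM ± 0.155. DSCC1 led the CTF18 list more narrowly, ahead of RFC2 with 94.7 TPM ± 2.41, and the subunit CHTF18 had 6.997 TPM ± 0.430. SQLE was 8.56-fold ± 0.183 above the median of 17 other cholesterol synthesis genes, and FDPS followed it at 179 TPM ± 9.95. In the list of degradation at the endoplasmic reticulum, DERL1 and RNF139 ranked 2 and 3 by mean behind HERPUD1 (448 TPM ± 18.3). DERL1 was above HERPUD1 in 1 of 3 libraries, and both members were above the 9 other partners. DEPTOR ranked 4 of 8 genes of the mTOR complexes, between MAPKAP1 and MTOR.

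Paralogs showed distances of both kinds. ATAD2 was 33.1-fold ± 4.43 above ATAD2B, ZHX1 21.4-fold ± 2.97 above ZHX3, and SNTB1 18.7-fold ± 1.74 above the median of 3 other syntrophins. CYRIB was the member of its pair in use, with 26.3 TPM against 0.150 TPM for CYRIA. MTSS1 and MTSS2 differed little (25.2 TPM ± 2.12 and 22.4 TPM ± 1.22), and MTSS1 was higher in 2 of 3 libraries. NDRG1 was second to NDRG3 (24.3 TPM ± 1.81), TRIB1 second to TRIB3 (1026 TPM ± 86.1) and ST3GAL1 ranked 4 of 6. NDRG1 and ST3GAL1 are among the members telomeric of MYC. So are CYRIB and ASAP1, which ranked first in their families, and ADCY8, which ranked 10 of 10 and was near 0. ASAP1 was 4.66-fold ± 0.327 above the median of 2 paralogs.

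**Figure D3:**
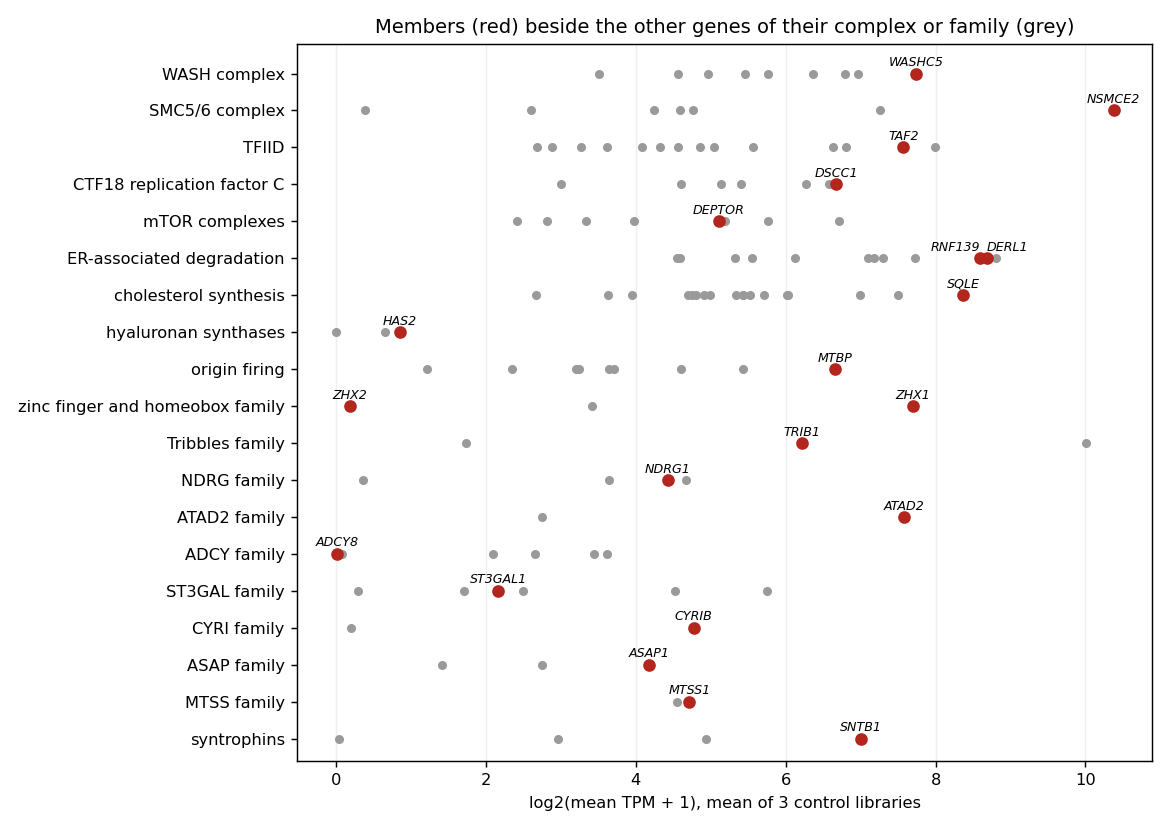
Mean level of each measured gene (x axis, log2 of the mean TPM of 3 control libraries plus 1) in 19 complexes, pathways and families (rows), with 8q24 members in red and the other genes in grey. NSMCE2, MTBP, SQLE, ATAD2 and SNTB1 are the rightmost points of their rows, while ST3GAL1 and ADCY8 are not.

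Spread between the libraries was the other measure that the choice had not used. For the 26 members with a mean of at least 10 TPM, the coefficient of variation had a median of 8.42% and ran from 0.859% (NSMCE2) to 18.0% (ATAD2), against 6.11% over the 7577 genes with such a mean. Replicate 1 was the highest library for 19 of these 26 members (73.1%) and for 54.6% of all such genes. TRIB1, FBXO32 and NDRG1 were highest in replicate 3. The median log2 ratio of replicate 3 to replicate 1 was -0.18 over the members and -0.08 over all genes.

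This ratio moved with transcript length, read from the number of estimated reads per TPM. Genes were put into 3 length classes of equal size. In the class with the longest transcripts, the median ratio was -0.19 over 2526 genes and -0.27 over the 11 members among them, of which 10 (90.9%) were highest in replicate 1, against 76.7% of all genes in that class. In the class with the shortest transcripts it was 0.01 over all genes and -0.04 over 5 members. The median coefficient of variation also differed by class. It was 11.5% for members against 7.78% for all genes in the longest class, and 7.92% against 5.77% in the middle class. In the shortest class the members were lower, at 3.02% against 5.10%. Relative to the median gene, the median length of the 26 members was 1.24. The part of transcript length in the spread of the members was not tested. ATAD2 (-0.48), TBC1D31 (-0.44), SNTB1 (-0.41) and ZHX1 (-0.38) had the lowest ratios, and NDRG1 (0.46) the highest.

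**Figure D4:**
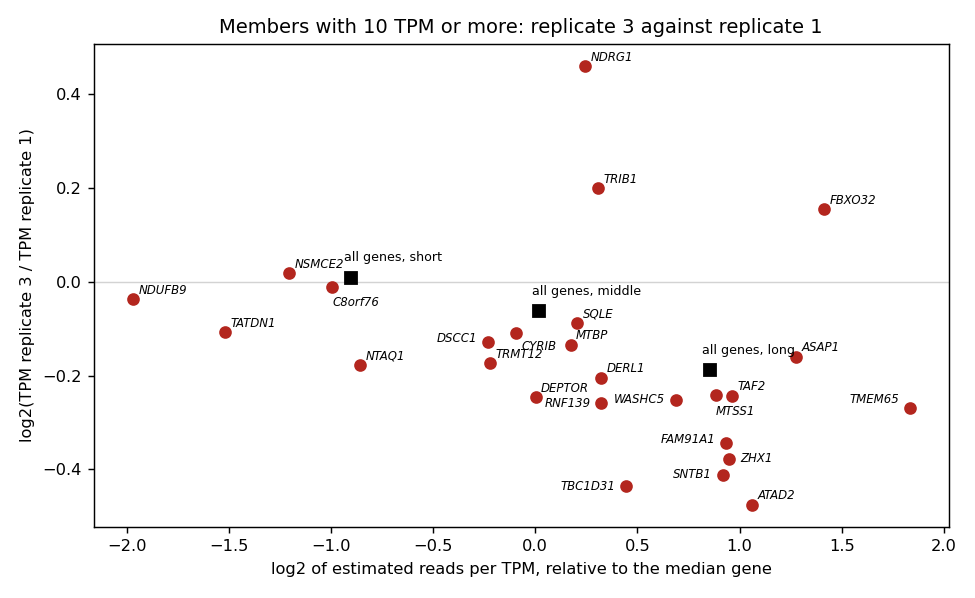
Log2 ratio of TPM in replicate 3 to replicate 1 (y axis) against estimated reads per TPM relative to the median gene, a measure of transcript length (x axis, log2), for the 26 members with a mean of 10 TPM or more, with black squares for the medians of all genes in 3 length classes. Members with long transcripts lie mostly below 0, as far as -0.48 for ATAD2, and NDRG1 lies at 0.46.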

How the data were processed

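Poly(A) RNA of 6 NCI-H69 samples (3 control, 3 SCRMP knockout) was sequenced, and only the 3 control libraries had matching columns. The authors deposited TPM, FPKM and read counts per gene and library, per the file headers. The deposited read counts are not all whole, and are taken here as estimated count values; the step that made them is not stated per the file headers. Per the submitters' processing notes the tools include HISAT2, StringTie and DESeq2 and the build is GRCh38, with no roles or versions. Another 12 columns of 3 further libraries match no label and were not used.

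Positions came from RefSeq (GRCh38.p14) by gene number, strands from GENCODE v29. A gene was called detected at 1 TPM in all 3 libraries. Log2 levels are log2(TPM + 1). Runs are medians of 31 neighbouring measured genes, ordered by start. The code of the scan was checked on shuffled levels with a planted run, which says nothing about the run described here. Length classes are 3 equal groups by estimated reads per TPM. Every member is named; other genes are named where they lie between the outermost members or are highest, lowest or next in rank in a list. No test was made, because members were chosen by level. Members and lists were chosen with earlier results of these data known. Promoter composition of the members was not analysed here. Alternatives were FPKM, estimated reads scaled to the library total, other minima, windows, pseudocounts and scaling, and the 3 libraries without 1 in turn. Computation used matplotlib 3.10.9, scipy 1.17.1, numpy 2.4.6 and pandas 2.3.3 under Python 3.11.15.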

Additional observations from a re-analysis of the deposited data

How the results depend on the processing

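No paired analysis was possible because knockout libraries had no matching column. Of the values below, the difference from the other genes of chromosome 8 is the one that can take either sign, and it was positive in all 8 alternatives. As members were chosen for their level in these same libraries, that sign repeats the choice. The members' median log2 level, 5.58, was 4.81 with FPKM, 6.86 with library-scaled estimated reads, 6.10 after leaving ribosomal protein and MTRNR2L genes out of the TPM scaling (which moves the median of all genes by 0.48), and 6.67 over detected members only. The highest running median, 6.66, was 5.88, 7.37 and 7.19 under the first 3 of these, 6.9999 over detected genes only, and 7.74 and 7.57 with windows of 11 and 21 genes. Members exceeded the other genes of chromosome 8 by 2.59 ± 0.06, by 2.48 with FPKM, 2.87 with estimated reads and 2.73 with a pseudocount of 0.1. Detected members, 29, were 27 at 5 TPM and 31 by a limit of 10 estimated reads. Members at 50 TPM or more ranged from 16 with FPKM to 22 with estimated reads, at the same number in each unit. Shares of all genes were not recomputed at these limits, so these counts cannot be set against the shares given earlier. Leaving out each library gave a median coefficient of variation of 5.61% to 9.86%, against 8.42%, and 5.61% is the value without replicate 1. Of 84 recomputed ranks in complexes and families, 82 were kept, and ADCY8 ranked 7 without replicate 1 and 9 without replicate 2, against 10. The cause of these shifts was not tested, but the scale of FPKM and of reads differs from that of TPM by construction. Depth limits the members under 1 TPM, which rest on at most 54.0 estimated reads per library.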

Other observations

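High genes continue on the centromeric side of the list; the genes named here were picked after their values were seen. Among the 20 measured genes before MAL2, 13 were detected, and the highest were RAD21, a cohesin subunit, with 602 TPM ± 25.7, MED30, a Mediator subunit, with 427 TPM ± 13.5, and EIF3H, a translation initiation factor subunit, with 144 TPM ± 4.86. UTP23, EXT1 and TRPS1 had 60.9 TPM ± 4.03, 70.8 TPM ± 1.92 and 51.9 TPM ± 6.28. Their neighbours AARD, SLC30A8 and TNFRSF11B were below 0.2 TPM on average. Of these 20 genes 5 were at 50 TPM or more in all libraries, against 19 of 38 members. The median of these 20 genes was 14.9 TPM ± 1.55, and the members' median was 1.59 ± 0.02 above theirs on the log2(TPM + 1) scale. On the telomeric side the 20 genes from ZFAT to THEM6 had a median of 1.62 TPM ± 0.270. None of these 20 reached 50 TPM, and PTK2, focal adhesion kinase, was highest at 24.2 TPM ± 1.02. The distance of the members' median from theirs was 4.19 ± 0.28.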
